A study of Homo sapiens with 2 samples.

Results

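SREBF1, ACACA and ACADVL are 3 genes that stand at the control, the committed step and the breakdown end of fatty acid metabolism, and they were described here in 95D cells, a human lung cancer line, deprived of glutamine or of glucose. They were taken by name: every transcript row listed under these 3 names with a number as its value was used, which gave 35 rows of the 42 listed. They are 3 of the 9253 names with a value in the deposited files. The glutamine-free group is wild-type 95D cells kept for 48 h in glutamine-free medium with dialyzed serum. The glucose-free group is wild-type 95D cells kept for the same 48 h in glucose-free medium with dialyzed serum, and both had 24 h in complete medium beforehand. Each group is 1 library of total RNA depleted of ribosomal RNA, so nothing below was tested across replicates and p-values are not printed. The study's title and design text speak of RNA pulled down with ALKBH5, an m6A-removing enzyme, against an input, but neither label says which of these a library is, and cells in complete medium are not analysed here. The 2 samples' descriptions both name the glucose column of the combined table; here each sample's own file was used, with Gln in the header of the glutamine-free and Glu in that of the glucose-free sample, and Glu was read as glucose after the sample's title.

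SREBF1 encodes the precursor of SREBP-1, a transcription factor that is made as a protein of the endoplasmic reticulum membrane, is carried to the Golgi when sterols are low and is cut there to free the part that enters the nucleus. It switches on genes of fatty acid synthesis. ACACA encodes acetyl-CoA carboxylase 1, which makes malonyl-CoA in the rate-limiting step of that synthesis; malonyl-CoA also blocks the entry of long-chain fatty acids into mitochondria. ACADVL encodes the very long-chain acyl-CoA dehydrogenase, which carries out the first reaction of mitochondrial beta-oxidation.

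Some facts of the whole table bear on everything that follows. The files head their name column as long non-coding RNA, carry no transcript identifiers and give most of the 91835 rows no value, so a value under SREBF1, ACACA or ACADVL belongs to the rows listed there and may not be that of the messenger RNA. Values are scaled reads, not divided by transcript length, so a rank or order of names below is one of scaled reads and not of levels per length. Reads could be recovered from them and came to 1442570 in the glutamine-free and 42827 in the glucose-free library, over the rows with a value. The 73172 rows without a value are not in these totals. The totals are therefore not library depths, and a share of recovered reads is a share of these rows. Of the 18663 rows with a value, 99.5% were above 0 in the glutamine-free and 2.54% in the glucose-free library. ACTB and GAPDH, genes that all cells use, stood at 798 and 810.0 in the glutamine-free library and were listed at 0 in the glucose-free library. A 0 there is therefore reported only as listed at 0. Among markers of the cell type, 3 of 5 epithelial genes had a value. KRT8 stood at 143 in the glutamine-free and 199.8 in the glucose-free library, while KRT18 at 75.1 and KRT19 at 42.6 in the glutamine-free library were listed at 0 in the glucose-free library. Of 5 lung lineage genes NAPSA alone had a value, at 18.9 in the glutamine-free and 161 in the glucose-free library. Of 3 mesenchymal genes FN1 stood at 963 in the glutamine-free and 344 in the glucose-free library, and VIM at 75.9 in the glutamine-free library and at a listed 0 in the glucose-free library. EPCAM, CDH1, NKX2-1 and SFTPC, which define epithelial and lung cells, had no value, nor had any of the 5 leukocyte and endothelial markers looked for.

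The SREBF1 locus also holds a microRNA, and its sequence is shown because it ties this gene by position to fatty acid oxidation. By RefSeq coordinates on GRCh38.p14, miR-33b-5p lies at chr17:17813897-17813916 on the minus strand, inside the SREBF1 span and on its strand. Its relative miR-33a-5p lies at chr22:41900949-41900969 on the plus strand, inside SREBF2, the gene of the sister factor SREBP-2 that mainly drives cholesterol synthesis. In the lines below capitals mark the seed, bases 2 to 8 from the 5′ end.
hsa-miR-33b-5p: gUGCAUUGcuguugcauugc
hsa-miR-33a-5p: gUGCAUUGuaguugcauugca
Both share the seed UGCAUUG, and over the 20 nt of the shorter sequence they differ at 2 bases. The levels of both microRNAs are not analysed here. The host SREBF1 stood at 964 in the glutamine-free library and was listed at 0 in the glucose-free library. The host SREBF2 stood at 36.4 in the glutamine-free library and was listed at 0 in the glucose-free library. Described targets of miR-33 include HADHB and PRKAA1, a subunit of the enzyme that oxidizes long-chain acyl chains and the catalytic subunit of AMP-activated kinase; HADHB, named after its value was seen, stood at 22.1 and PRKAA1 at 51.4 in the glutamine-free library, each listed at 0 in the glucose-free library.

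The 3 genes lie on chromosome 17, at chr17:17811334-17836986 on the minus strand for SREBF1, chr17:37084992-37406836 on the minus strand for ACACA and chr17:7217125-7225266 on the plus strand for ACADVL, in RefSeq's GRCh38.p14. The RefSeq table held 6 promoter windows for them, each from 250 bases before to 50 bases after a transcript start: 1 for SREBF1, 3 for ACACA and 2 for ACADVL. For each gene the window richest in CpG is printed, to show the letters around a start of each member; being above 0 in the glutamine-free library, which the 3 names share, also holds for 99.5% of all names. Capitals mark GC boxes, the letters GGGCGG on either strand, which are bound by the Sp1 family that acts beside SREBP-1 at many lipid genes.
SREBF1, chr17:17836937-17837236, minus strand: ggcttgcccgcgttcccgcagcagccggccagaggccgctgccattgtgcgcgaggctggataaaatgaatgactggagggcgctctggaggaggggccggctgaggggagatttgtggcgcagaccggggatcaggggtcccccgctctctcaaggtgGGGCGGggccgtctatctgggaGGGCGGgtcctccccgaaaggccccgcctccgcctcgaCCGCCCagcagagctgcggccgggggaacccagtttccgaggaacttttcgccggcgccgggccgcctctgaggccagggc
ACACA, chr17:37406787-37407086, minus strand: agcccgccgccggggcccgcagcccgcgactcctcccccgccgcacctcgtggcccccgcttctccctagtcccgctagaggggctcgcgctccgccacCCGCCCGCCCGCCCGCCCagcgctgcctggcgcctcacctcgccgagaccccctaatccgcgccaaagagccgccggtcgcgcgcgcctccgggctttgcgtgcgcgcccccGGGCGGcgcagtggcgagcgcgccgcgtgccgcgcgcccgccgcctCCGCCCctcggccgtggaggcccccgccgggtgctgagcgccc
ACADVL, chr17:7219688-7219987, plus strand: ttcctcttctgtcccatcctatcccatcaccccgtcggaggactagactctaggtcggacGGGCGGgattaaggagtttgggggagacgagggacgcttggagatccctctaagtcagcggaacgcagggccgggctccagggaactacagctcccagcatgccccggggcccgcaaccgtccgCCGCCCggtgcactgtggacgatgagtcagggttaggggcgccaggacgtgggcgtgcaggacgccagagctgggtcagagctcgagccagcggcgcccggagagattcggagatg
The printed SREBF1 window held 3 GC boxes, the ACACA window 6, of which some overlap each other, and the ACADVL window 2. Of the 3 windows not printed, those of ACACA held 7 and 0 and that of ACADVL 0, so that 4 of the 6 held at least 1, against 45.0% of all 35116 windows in the table. The printed windows, chosen for their CpG, had 28, 53 and 26 CpG; the others had 36 and 5 for ACACA and 6 for ACADVL, and the median of all windows was 14. The CCAAT box, the letters CCAAT on either strand and the site of NF-Y, was in 2 of the 6 windows, both of ACACA and neither printed, against 34.6% of all windows. A sterol regulatory element in the form TCACNCCAC was in 0 of the 6 windows and in 1.13% of all. The palindromic E-box CACGTG was in 0 of the 6 and in 7.26% of all. A match is only a match of letters, no match says only that the letters are not in this window, and which start a row of the files used cannot be told.

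In the glutamine-free library the SREBF1 rows summed to 964, the ACACA rows to 37.9 and the ACADVL rows to 925. In the glucose-free library all 3 names were listed at 0. All 35 rows were above 0 in the glutamine-free library, where 99.5% of all rows with a value were. In the glucose-free library 0 of the 35 were above 0, where 2.54% of all rows and 4.25% of all names were. On the log2(value + 1) scale the 3 names passed 2-fold with the glutamine-free library higher, as did 97.4% of all names, and 1.42% of names passed it with the glucose-free library higher. Being above 0 in the glutamine-free library was nearly fixed by having a value, so it says little about the members. The 2-fold count follows from it together with the listed 0. The members' counts are thus near the background of all names, and since they rest on a listed 0 no fold is given. Names at the level of SREBF1 and ACADVL, given below, were more often above 0 in the glucose-free library than all names.

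**Figure D1:**
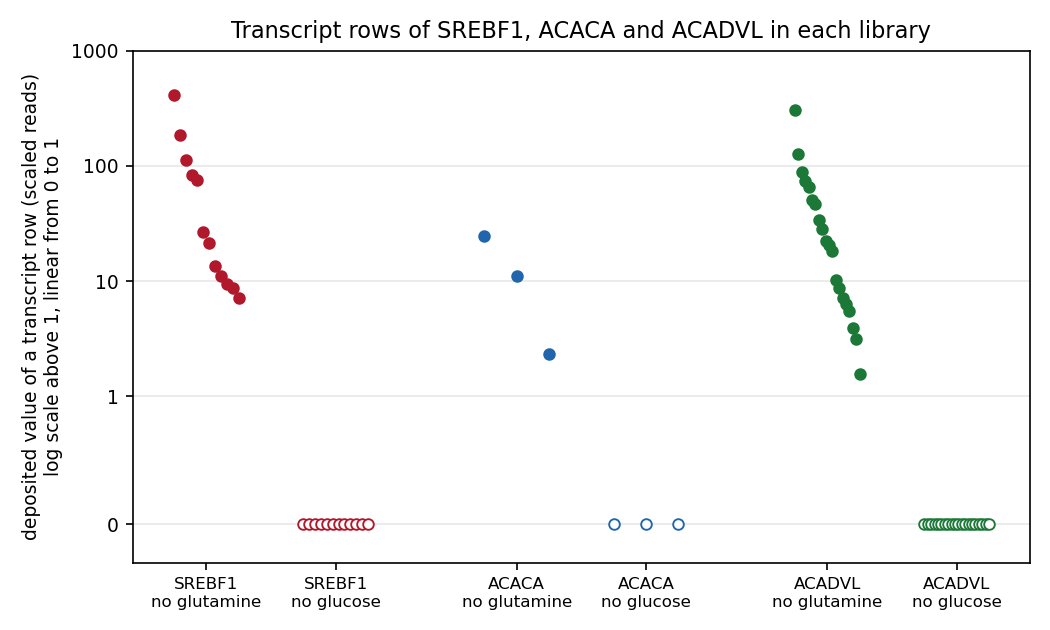
Deposited value of each transcript row (scaled reads, log scale above 1 and linear below) for SREBF1 (12 rows), ACACA (3 rows) and ACADVL (20 rows), with the glutamine-free library as filled and the glucose-free library as open points. Filled points run from 1.56 to 409 and every open point lies at 0.

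SREBF1 rested on 1219 recovered reads in the glutamine-free library (95% exact Poisson interval 1152 to 1289). That was 0.0845% of the library's recovered reads (95% Wilson interval 0.0799 to 0.0894%). Its summed value was the 52nd highest of the 9253 names, so that 0.562% of names stood at or above it. The highest of its 12 rows stood at 409, the next at 185, 113, 83.8 and 75.1, and the other 7 at 26.9, 21.3, 13.4, 11.1, 9.47, 8.68 and 7.10. The leading 5 rows held 89.8% of the reads of the name, and a gap separated them from the rest. All 12 were listed at 0 in the glucose-free library, and 1 more SREBF1 row had no value in either file.

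ACADVL rested on 1170 recovered reads (1104 to 1239), or 0.0811% of the library's recovered reads (0.0766 to 0.0859%). It was the 59th highest name, with 0.638% of names at or above it. The Poisson intervals of SREBF1 and ACADVL overlap. The highest of its 20 rows stood at 303, followed by 127, 88.6, 74.3, 65.6, 50.6, 46.7, 34.0, 28.5, 22.1, 20.5, 18.2 and 10.3, and the last 7 lay between 1.56 and 8.68. Below the top row these values came down in smaller steps than at the gap in SREBF1. All 20 were listed at 0 in the glucose-free library, and 4 more ACADVL rows had no value.

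ACACA had far fewer reads, 48 recovered (35.4 to 63.6), or 0.00333% of the library's recovered reads (0.00251 to 0.00441%). It stood at rank 3268, with 35.3% of names at or above it. Its 3 rows stood at 24.5, 11.1 and 2.35, which are 31, 14 and 3 reads. All 3 were listed at 0 in the glucose-free library, and 2 more ACACA rows had no value. At 48 reads, differences within this Poisson interval are not detectable.

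The 3 names differed in how their reads were spread over rows. The largest row held 42.4% of the SREBF1 reads (95% Wilson interval 39.7 to 45.2%), 64.6% of the ACACA reads (50.4 to 76.6%) and 32.7% of the ACADVL reads (30.1 to 35.5%). The SREBF1 and ACADVL intervals do not overlap; intervals here express counting error alone, because no molecular identifiers that would mark PCR copies are described. The effective number of rows, the inverse of the summed squared shares, was 4.07 for SREBF1, 1.98 for ACACA and 6.40 for ACADVL. To reach 80% of the reads took 4 rows of SREBF1, 2 of ACACA and 7 of ACADVL.

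**Figure D2:**
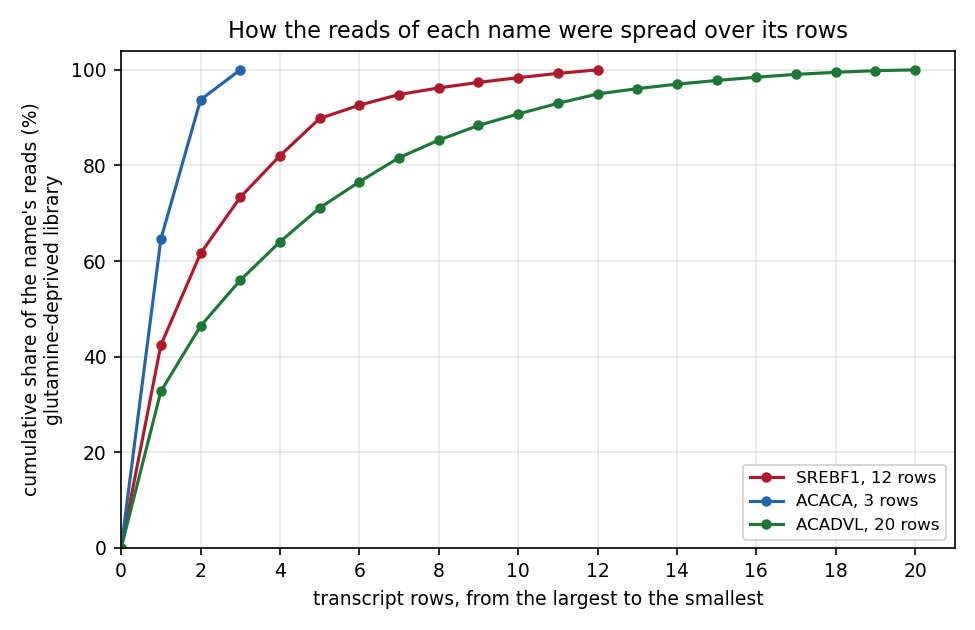
Cumulative share of a name's recovered reads (%, glutamine-free library) against its transcript rows from the largest to the smallest, for SREBF1, ACACA and ACADVL. The ACADVL line climbs most slowly, with 46.4% in its 2 largest rows against 61.6% for SREBF1 and 93.8% for ACACA.

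Names with the same number of rows give the measure of these shares. Among the 21 names with 12 rows the largest row held a median of 32.9% of the value (16.9 to 63.8%), so that SREBF1 lay above the median and within the range. Among the 836 names with 3 rows the median was 62.1% (34.2 to 99.9%), close to ACACA. Only 3 names had 20 rows, ACADVL among them, with 21.6 to 39.0%. The files list 13 rows for SREBF1, 5 for ACACA and 24 for ACADVL, with or without a value. RefSeq has 13, 5 and 4 curated mRNAs for these genes, and 19, 39 and 10 transcripts with the non-coding and predicted ones, so ACADVL alone of the 3 has more rows than either count. Few names had so many rows with a value, 57 having at least the 12 of SREBF1 and 10 at least the 20 of ACADVL. A name with many rows sums over more of them, and in single rows the members were less extreme: 7 of 12 SREBF1 rows, 1 of 3 ACACA rows and 12 of 20 ACADVL rows lay above 13.4, the median of all rows with a value. The top row of SREBF1 was the 117th highest of the 18663 rows and that of ACADVL the 191st.

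**Figure D3:**
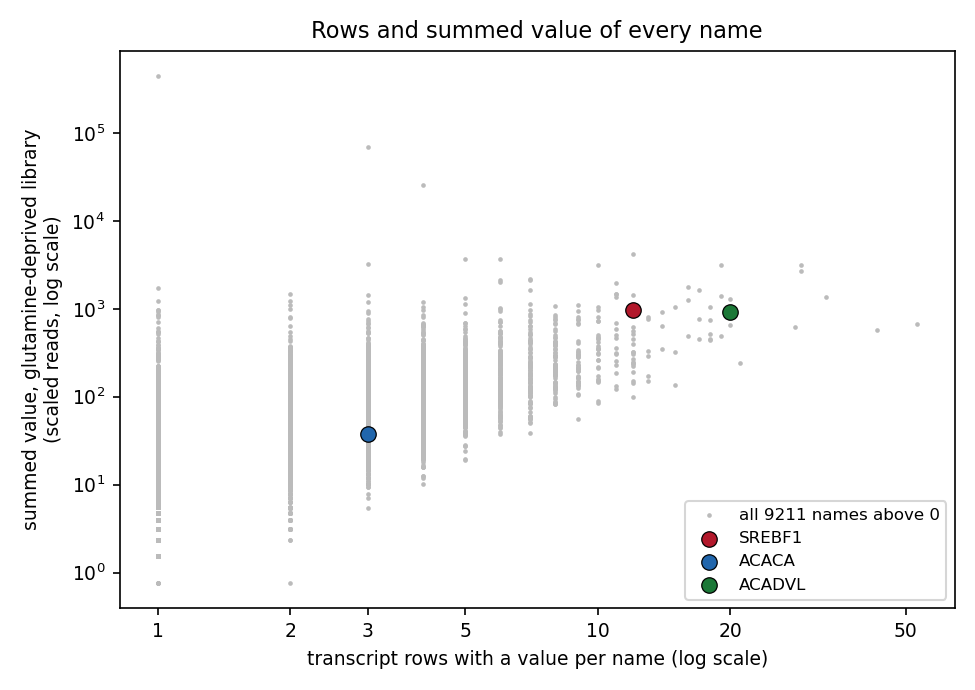
Summed value in the glutamine-free library (scaled reads, log scale) against the number of transcript rows with a value (log scale) for the 9211 names above 0 there, with SREBF1, ACACA and ACADVL coloured. SREBF1 and ACADVL lie at 12 and 20 rows near the top of the cloud, and ACACA lies within the cloud at 3 rows.

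Reads from overlapping genes cannot be told apart without strand. By whole RefSeq gene spans, ACADVL overlaps DLG4, a synaptic scaffold gene on the opposite strand, over 2926 bp. An ACADVL transcript that starts later in the span shares less. DLG4 stood at 67.2 in the glutamine-free library and was listed at 0 in the glucose-free library. SREBF1 overlaps RAI1 on the opposite strand over 120 bp, and ACACA overlaps C17orf78 on the opposite strand over 16724 bp. RAI1 and C17orf78 are not analysed here. ACACA also spans 3 pseudogenes. The part of such neighbours in the values was not tested.

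Most names of like level were also listed at 0 in the glucose-free library, a comparison chosen after the values were seen. Of the 147 names within 2-fold of SREBF1 in the glutamine-free library, SREBF1 included, 54 were above 0 in the glucose-free library, or 36.7%. Of the 158 within 2-fold of ACADVL it was 54, or 34.2%. Of the 3023 within 2-fold of ACACA it was 86, or 2.84%. SREBF1 and ACADVL were thus among the 63.3% and 65.8% of names of their level that were listed at 0, and ACACA among 97.2%. Of the 57 names with at least as many rows as SREBF1, 18 were above 0 there. Of the 59 names with a value at least that of ACADVL it was 26, or 44.1%.

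By the closeness of log2(value + 1) in the glutamine-free library, among named genes likewise listed at 0 in the glucose-free library, the nearest to SREBF1 were LAMB1 at 965, KCNQ1OT1 at 967 and HSPA9 at 976. The nearest to ACADVL were ENPP7 at 925.5, COPA at 920.5 and SNHG3 at 933. MED25, LIG3 and IPO5 were nearest to ACACA, each at 37.9 and each with 3 rows. This likeness rests on 1 value per name in the glutamine-free library, since 95.8% of all names were listed at 0 in the glucose-free library. KCNQ1OT1 and ENPP7 reached their values with 1 row each, LAMB1 with 7 and COPA with 14, against 12 for SREBF1 and 20 for ACADVL.

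Genes of lipid metabolism, SREBF1, ACACA and ACADVL included, were grouped in 8 lists of 147 different names, of which 79 had a value. Of these 79, 78 were above 0 in the glutamine-free library, where 99.5% of all names were. In the glucose-free library 6 were above 0, or 7.59%, beside 4.25% of all names. Their median value in the glutamine-free library was 30.8, beside 20.5 over all names, and they had a median of 2 rows, beside 1. SREBF1, ACACA and ACADVL together held 34.0% of the 7171 recovered reads of these 79 names. After SREBF1 and ACADVL the next was ECI1, an isomerase for unsaturated fatty acids, at 227, and no other name of the lists had more than 7 rows. The glucose-free counts of single lists below stand beside the same 4.25%. With 4 to 17 names with a value per list, a count of 0 is near that share.

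In the sterol regulatory element pathway 13 of 20 names had a value, with a median of 36.4, and 13 were above 0 in the glutamine-free and 0 in the glucose-free library. SREBF1 was followed by USF1, a factor that binds E-boxes of lipid genes, at 183. MLX, the partner of the glucose-responsive factor ChREBP, stood at 105, and MBTPS1, the protease that makes the first cut in SREBP, at 76.7. SREBF1 held 61.0% of the reads of this list. In cholesterol synthesis and uptake 11 of 23 names had a value, with a median of 7.10, and 0 were above 0 in the glucose-free library. MVD, the decarboxylase of the mevalonate pathway, led it at 130 in the glutamine-free library. DHCR7, which makes cholesterol in the last step, stood at 93.3 and FDPS, which makes farnesyl diphosphate, at 74.3.

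In fatty acid synthesis and remodelling 12 of 21 names had a value, with a median of 29.2; all 12 were above 0 in the glutamine-free and 1 in the glucose-free library. That 1 was HSD17B12, a reductase of fatty acid elongation, at 132 in the glutamine-free and 126 in the glucose-free library. FASN, which builds palmitate from malonyl-CoA, stood at 128 in the glutamine-free library, FADS2, a desaturase, at 92.5 and SLC25A1, the mitochondrial citrate carrier, at 53.0, and all were listed at 0 in the glucose-free library. ACACA was the 5th highest of the 12. Among names that control acetyl-CoA carboxylase 7 of 13 had a value, with a median of 51.4. STK11, the kinase that activates AMP-activated kinase, stood at 79.1 and MLYCD, which breaks malonyl-CoA down, at 68.0 in the glutamine-free library, each listed at 0 in the glucose-free library. PRKAB1, a regulatory subunit of AMP-activated kinase, stood at 59.3 in the glutamine-free and 140 in the glucose-free library, on the same single row.

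In mitochondrial fatty acid oxidation 17 of 25 names had a value, with a median of 49.8; all 17 were above 0 in the glutamine-free and 2 in the glucose-free library. ACADVL held 46.0% of the reads of this list. ECI1 came next, and ACAD9, a dehydrogenase closely related to ACADVL that also helps to assemble complex I, stood at 181 and was listed at 0 in the glucose-free library. ETFDH, the oxidoreductase that passes electrons from acyl-CoA dehydrogenases to the respiratory chain, stood at 49.8 in the glutamine-free and 129 in the glucose-free library. ETFA, a subunit of the electron carrier between them, stood at 153 in the glutamine-free and 2.55 in the glucose-free library, which is 2 reads. ETFB, the other subunit, named after its value was seen, stood at 8.68 in the glutamine-free library and was listed at 0 in the glucose-free library. In the glucose-free library ETFDH had 2 of its 5 rows above 0, and the larger of them was not its largest row in the glutamine-free library.

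**Figure D4:**
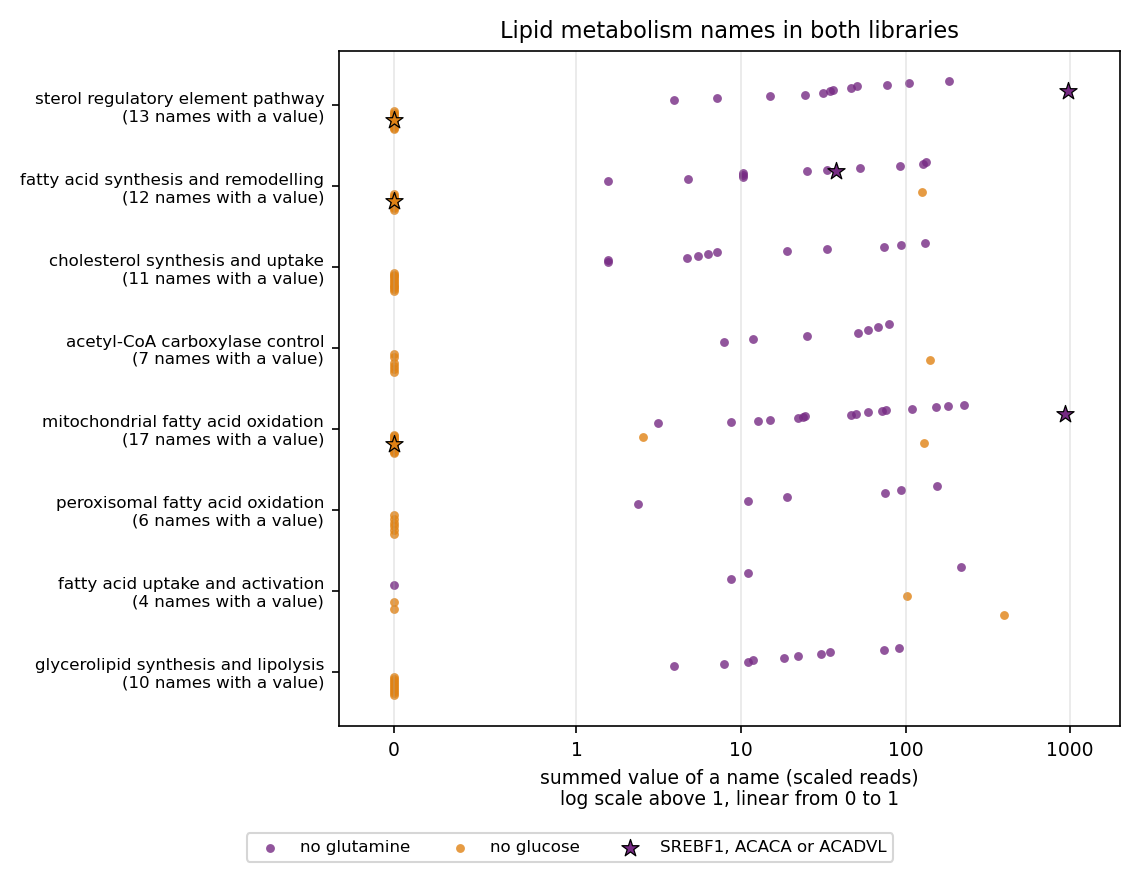
Summed value (scaled reads, log scale above 1 and linear below) of each lipid metabolism name with a value, by list, with the glutamine-free library above the glucose-free library and SREBF1, ACACA and ACADVL as stars. In the glucose-free library all stars lie at 0, and 6 names lie above 0.

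In peroxisomal oxidation 6 of 12 names had a value, with a median of 47.0, and 0 were above 0 in the glucose-free library. HSD17B4, the bifunctional enzyme of that pathway, led it at 154 in the glutamine-free library, before CRAT, a carnitine acetyltransferase, at 94.1 and the thiolase ACAA1 at 75.1. In glycerolipid synthesis and lipolysis 10 of 19 names had a value, with a median of 20.1, and 0 were above 0 in the glucose-free library. AGPAT4, an acyltransferase, stood at 90.9, PNPLA2, the first lipase of stored triglyceride, at 74.3, LPIN1, a phosphatidate phosphatase, at 34.8 and GPAT4 at 30.8 in the glutamine-free library. Of 15 names of fatty acid uptake and activation 4 had a value, and 2 of these, both long-chain acyl-CoA synthetases, were above 0 in the glucose-free library. Of all names 4.25% were above 0 there, and with 4 names the count is not read as a trait of this list. ACSL3 stood at 216 in the glutamine-free and 102 in the glucose-free library. ACSL4, which prefers polyunsaturated acids, was listed at 0 in the glutamine-free and stood at 397 in the glucose-free library. ACSL1 and SLC27A3 stood at 11.1 and 8.68 in the glutamine-free library and were listed at 0 in the glucose-free library.

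Of the 6 list names above 0 in the glucose-free library 5 were above 0 in both, and for 2 of these the direction of the difference depended on the scale. The rows with a value of each library were brought to a sum of 1000000. ACSL3 then stood at 189 in the glutamine-free and 1891 in the glucose-free library, opposite to the deposited values. HSD17B12 likewise stood at 116 in the glutamine-free and 2335 in the glucose-free library. Each of these 2 names had 1 row above 0 in the glucose-free library, which was not its largest row in the glutamine-free library. On that row ACSL3 stood at 15.0 in the glutamine-free and 102 in the glucose-free library. HSD17B12 stood on its row at 56.1 in the glutamine-free and 126 in the glucose-free library. The direction thus also depended on which rows were summed, and none is drawn for this pair. ETFDH stood at 43.6 in the glutamine-free and 2382 in the glucose-free library. PRKAB1 stood at 52.0 in the glutamine-free and 2592 in the glucose-free library. Both were already higher in the glucose-free library in the deposited values. The rescaling divides by sums of deposited values over rows with a value only, which are not library sizes. Those sums were 1140830 in the glutamine-free and 54149 in the glucose-free library, so the rescaling raises the glucose-free side. ETFDH and PRKAB1 therefore could not change side, and the rescaling was no check of their direction. ETFA, at 134 in the glutamine-free and 47.1 in the glucose-free library, kept its side. Its glucose-free value is 2 reads, too few to give a direction.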

How the data were processed

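Per the labels, total RNA of 95D cells was depleted of ribosomal RNA and sequenced as paired ends. Per the submitters' processing notes, HISAT2 2.0.5, StringTie and build hg38 were used; how reads were counted, filtered and normalized, and the annotation, is not given in the sources used here. The values the authors deposited are in a unit the file headers do not state. They rise in equal steps, 0.791 in the glutamine-free and 1.26 in the glucose-free library. They were therefore treated as read counts times 1 factor per library, with a fitted offset of -0.0183 in the glutamine-free and 0.0217 in the glucose-free library. Taking off this small offset and dividing by that step left whole reads within 0.1 for 100% of 18536 and 472 values up to 1000 reads. Larger values were converted in the same way without this check. Among them was the most abundant name, XLOC_220679, at 442573 in the glutamine-free library, so the recovered totals rest in part on unchecked values. Values under 1e-09 were set to 0 and rows without a number left out. The combined table repeats these values row by row and was left out.

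Python 3.11.15, pandas 2.3.3 and scipy 1.17.1 were used. Values were summed per name; the 2-fold description used log2(value + 1) and names of at least 1 in either library. Of the 9253 names 6861 are RefSeq symbols. With 1 library per condition no test, and no count test on recovered reads, was run. Members, lists and tests were chosen with earlier results of these data known. Named were, per list, the 4 names highest in the glutamine-free library and those above 0 in the glucose-free library, and per member the 3 names nearest in value; some names within this rule are not reported here. Read recovery was tested on data simulated with a step and an offset. Those data had the fitted form by design, so the test cannot show that the deposited values have it. Alternatives were other scales, pseudocounts, minimums, folds and sets of names, and the largest row in place of the sum.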

Additional observations from a re-analysis of the deposited data

How the results depend on the processing

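With its rows with a value rescaled to a sum of 1000000, the glutamine-free library gave SREBF1 845 and ACADVL 811. Doing so without XLOC_220679, the most abundant name, gave SREBF1 1381, ACACA 54.3 and ACADVL 1325. With the largest row only, the values were 409, 24.5 and 303. Without XLOC_220679 the shares of reads were 0.138%, 0.00544% and 0.132%. The percent of names at or above ACACA was 45.1% among protein-coding symbols and 41.1% among names of at least 5. Among names with the same number of rows it was 14.3% for SREBF1, 69.6% for ACACA and 66.7% for ACADVL, the last over 3 names. Names at least 2-fold higher in the glucose-free library numbered 347 after rescaling and 85 at 4-fold, against 131. Of 32 list counts tried again 31 stayed within 1.5 times, but many of them could not move. A sum is above 0 whenever its largest row is, and a count of 0 stays 0 under a higher minimum. With a minimum of 5, ETFA no longer counted and mitochondrial fatty acid oxidation had 1 name in the glucose-free library. The 3 members were listed at 0 in the glucose-free library under every scale, since no factor moves a 0. Depth limits ACACA most, at 48 reads. No paired analysis was possible because each condition has 1 library.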
